A study of Mus musculus with 4 samples.

Results

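Glycolytic enzyme isoforms are the products of different genes that catalyse the same step of the breakdown of glucose to pyruvate and lactate. The group described here holds 10 mouse genes, chosen by name with earlier results of these data known. They are the hexokinases Hk1 and Hk2, the phosphofructokinases Pfkl, Pfkm and Pfkp, the aldolases Aldoa and Aldoc, the phosphoglycerate kinase Pgk1 and the lactate dehydrogenases Ldha and Ldhb. All probe sets annotated with 1 of these symbols and no other were taken, which gave 25 of the 34945 probe sets with 1 gene symbol, on an array of 45101. The samples were mouse embryonic stem cells of 2 genotypes, wild type (WT) and lacking the Polycomb subunit Suz12 (Suz12KO), with 2 Affymetrix expression arrays each. By their protocol text, each genotype is a pool made from equal amounts of RNA of 3 clones, so differences between clones cannot be seen. The sources used here do not give the strain, the medium, any feeder cells or how Suz12 was disrupted. Nothing in the labels tells if a genotype's 2 arrays had RNA of their own, so p-values measure the spread between arrays, and that spread may be technical.

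Glycolysis yields ATP without oxygen and supplies carbon for nucleotides, amino acids and lipids, and pluripotent stem cells are known for running it at a high rate. Hexokinase traps glucose in the cell as a phosphate ester, and phosphofructokinase commits it to glycolysis and is the most regulated step. Aldolase splits the sugar, phosphoglycerate kinase makes the pathway's first ATP, and lactate dehydrogenase interconverts pyruvate and lactate. Suz12 belongs to the core of Polycomb repressive complex 2, which methylates histone H3 at silent developmental genes.

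The bases upstream of the start of Pfkp, the one member that rose more than 2-fold, are shown beside those of its paralog Pfkl, which did not pass the test, and of Pgk1, which passed it with a small change. Each run is the 250 bases before an annotated start in RefSeq (GRCm38.p6), on the gene's strand. Capitals mark ACGTG and GCGTG on either strand, the core letters bound by hypoxia-inducible factors, with which glycolytic genes are commonly associated.
Pfkp, chr13:6648772-6649021, minus strand: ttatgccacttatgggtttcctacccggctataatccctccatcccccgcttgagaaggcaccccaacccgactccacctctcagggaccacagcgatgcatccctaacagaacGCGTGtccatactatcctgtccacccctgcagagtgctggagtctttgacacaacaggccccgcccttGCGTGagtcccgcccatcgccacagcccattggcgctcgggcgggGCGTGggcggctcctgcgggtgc
Pfkl, chr10:78009808-78010057, minus strand: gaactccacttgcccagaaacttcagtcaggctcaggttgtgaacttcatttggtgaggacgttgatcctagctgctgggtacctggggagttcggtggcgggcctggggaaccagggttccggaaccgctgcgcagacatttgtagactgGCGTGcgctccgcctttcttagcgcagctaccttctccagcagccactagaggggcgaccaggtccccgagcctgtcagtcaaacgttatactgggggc
Pgk1, chrX:106186850-106187099, plus strand: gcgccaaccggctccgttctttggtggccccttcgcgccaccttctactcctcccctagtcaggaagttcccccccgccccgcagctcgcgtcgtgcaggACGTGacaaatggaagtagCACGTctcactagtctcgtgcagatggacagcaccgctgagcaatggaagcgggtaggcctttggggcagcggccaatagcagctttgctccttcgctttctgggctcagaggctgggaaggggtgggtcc
The Pfkp run held 3 matches, all GCGTG. The Pfkl run held 1, also GCGTG, and the Pgk1 run held 2, both ACGTG. A relation between the number of matches and the change in expression was not tested. Among the other uncalled genes, the windows of Ldha held 5 and 1, those of Hk1 0 and 3 and that of Hk2 2. Those of Pfkm held 2, 2, 1 and 0, those of Aldoc 1 and 1, and that of Ldhb 1. Those of the called Aldoa held 0, 1 and 1. All 10 members matched the RefSeq table, with 18 windows in total, some of which overlap because a gene has several annotated starts. ACGTG or GCGTG occurred in 15 of the 18 member windows, and in 38.6% of the 32851 windows of all genes. Windows that overlap can count the same match more than once. Both cores contain a CG, and the median number of CG dinucleotides was 11.5 in member windows, against 6.0 in all windows. An excess of these cores beyond CG content was not tested. A CACGTG counts as 2 overlapping matches. GGGCGG on either strand, the letters of the GC box, occurred in 7 member windows and in 32.7% of all windows, and Pfkp held 4 while Pfkl held 0. The Pfkp run held 16 CG dinucleotides and the Pfkl run 13, against a median of 6.0 over all windows. These matches describe the letters only, and no binding or methylation was measured.

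Depth on an array is set by signal over background. The median signal was 171 to 175 in WT, against 191 to 202 in Suz12KO, and the 27 probe sets for bacterial spikes, which read low and were taken as unused, reached at most 195 in any array. Log2 values of tested genes correlated at 0.948 within WT, 0.934 within Suz12KO and 0.905 to 0.914 between genotypes (a correlation over genes, and genes are no independent replicates). Suz12 itself read 1097 and 1094 in WT, against 217 and 369 in Suz12KO. Embryonic stem cell markers were present in all arrays, and 9 of 10 were higher in Suz12KO, while Lin28a (-0.14) did not pass. Their summed signal was 75425 to 75875 in WT, against 127020 to 130767 in Suz12KO. The largest part of that sum was Dppa5a, at 29439 and 27580 in WT, against 55767 and 56548 in Suz12KO. Most tested fibroblast markers went the other way: 5 of 6 were lower, while Thy1 had a log2 fold change of 0.41 and did not pass. The summed signal of the fibroblast markers was 45878 to 46635 in WT, against 10170 to 10215 in Suz12KO. Most of that sum was Acta2 alone, at 33742 and 33855 in WT, against 6821 and 7422 in Suz12KO. Pdgfrb, Postn, Dcn and Lum lay within the spike range in every array, WT included. Of the muscle and heart markers Actc1 was lower and Des higher, and none of the 4 tested neural or 3 tested endoderm markers passed limma (0 at an unadjusted p under 0.05). The ratio of 3' to 5' signal of Gapdh was 0.756 to 0.807 in WT, against 0.871 to 0.889 in Suz12KO, and that of Actb was 1.14 to 1.16 in all arrays. The part of the fibroblast-like signal and of the Gapdh ratio in the results below was not tested. In bulk RNA, fewer cells of a type and less RNA per cell cannot be told apart.

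The comparison asks how far the transcripts of each enzyme differ between cells with and without Suz12. Pfkp, the platelet-type phosphofructokinase, rose about 2.50-fold in Suz12KO, and Aldoa and Pgk1 rose by 1.19-fold and 1.13-fold. Hk1, Hk2, Pfkl, Pfkm, Aldoc, Ldha and Ldhb did not pass the test. Each gene was represented by its brightest probe set and tested with limma on log2(signal + 16), with Benjamini-Hochberg adjustment over 12735 genes and calls at an adjusted p under 0.05. Of the 10 members, 3 were called, where 9.97% of all tested genes were called, and all 3 were higher, against a background of 4.48% called higher. Because the members were chosen with earlier results of these data known, this count cannot show an excess over that background. None was called lower by limma (0 at an unadjusted p under 0.05), against 5.50% of all tested genes. These shares include many genes dimmer than the members. With a filter at the 50th percentile, which all 10 members passed, 1450 of 9097 genes were called, 676 of them higher, and 3 members. The members' median log2 fold change was 0.21, beside 0.04 over all tested genes and 0.0075 over those past the 50th percentile. The members' median was 0.13 without Suz12KO replicate 1, 0.15 without WT replicate 2, 0.29 without WT replicate 1 and 0.11 with the mean of each gene's probe sets. At the level of probe sets, 24 of 25 passed the filter on dim signal and 3 were called, all higher, while of all 24461 tested probe sets 6.81% were called, 2.82% higher and 3.99% lower. The arrays of the genotypes did not overlap for 5 of the 10 genes, near the background of 52.9%, so that count says nothing particular about the members.

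**Figure D1:**
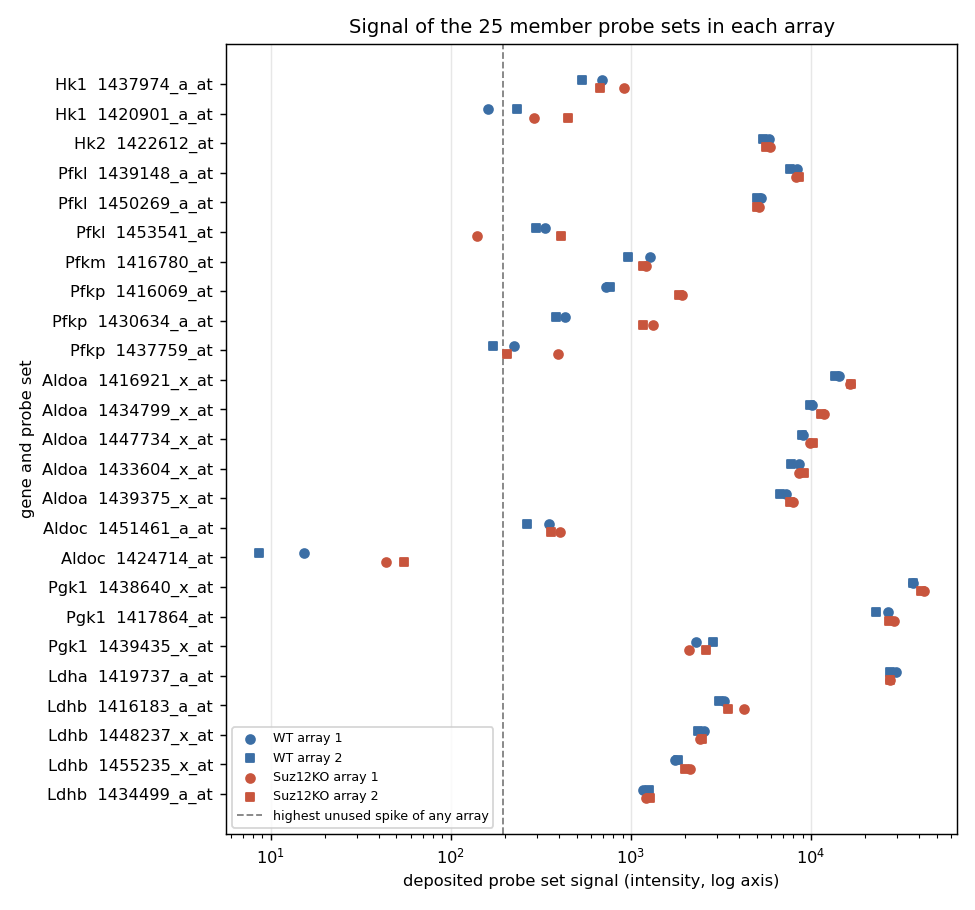
Deposited signal of the 25 member probe sets on a log axis, with WT arrays in blue and Suz12KO arrays in red (circles array 1, squares array 2) and the highest unused spike of any array, 195, as a dashed line. The 2 brighter Pfkp probe sets show Suz12KO arrays clear of WT arrays, while most other pairs lie close together.

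Phosphofructokinase, the committing step, held the largest change. The brightest Pfkp probe set read 726 and 768 in WT, against 1933 and 1847 in Suz12KO. Both Suz12KO arrays lay far above both WT arrays. The mean signal was 747 ± 29.8 in WT, against 1890 ± 60.9 in Suz12KO (SD, n = 2), which gave a log2 fold change of 1.32 (SE 0.13, limma adjusted p = 0.000289). Its 95% interval ran from 1.02 to 1.62. Among all 12735 tested genes this was the 275th largest rise, and 1.36% of tested genes were called higher with a rise of more than 1 on the log2 scale.

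The other Pfkp probe sets are dimmer. The next in brightness read 430 and 384 in WT, against 1338 and 1168 in Suz12KO, a log2 fold change of 1.58 (SE 0.19, limma adjusted p = 0.00118 over all probe sets). It too kept the genotypes apart. The remaining one read 225 and 172 in WT, against 394 and 205 in Suz12KO, and its log2 fold change of 0.50 (SE 0.45) did not pass (limma adjusted p = 0.592). Its WT array 2 lay within the spike range, and its Suz12KO array 2 lay below WT array 1.

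Pfkl, the liver-type isoform, read 8373 and 7708 in WT, against 8282 and 8631 in Suz12KO on its brightest probe set, with a log2 fold change of 0.07 (SE 0.07, limma adjusted p = 0.568). The genotypes overlapped, and the 95% interval of -0.08 to 0.23 lies wholly below that of Pfkp. The next in brightness gave no call either and read 5259 and 5029 in WT, against 5189 and 5026 in Suz12KO (-0.01). The dimmest Pfkl probe set read 335 and 300 in WT, against 141 and 407 in Suz12KO, so its 2 Suz12KO arrays lay on opposite sides of the WT arrays, the lower one within the spike range (-0.37, SE 0.48).

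Pfkm, the muscle-type isoform, has 1 probe set here, which read 1287 and 966 in WT, against 1213 and 1170 in Suz12KO. Both Suz12KO values lay between the WT values. The log2 fold change was 0.09 (SE 0.16, limma adjusted p = 0.786), with a 95% interval of -0.28 to 0.46.

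**Figure D2:**
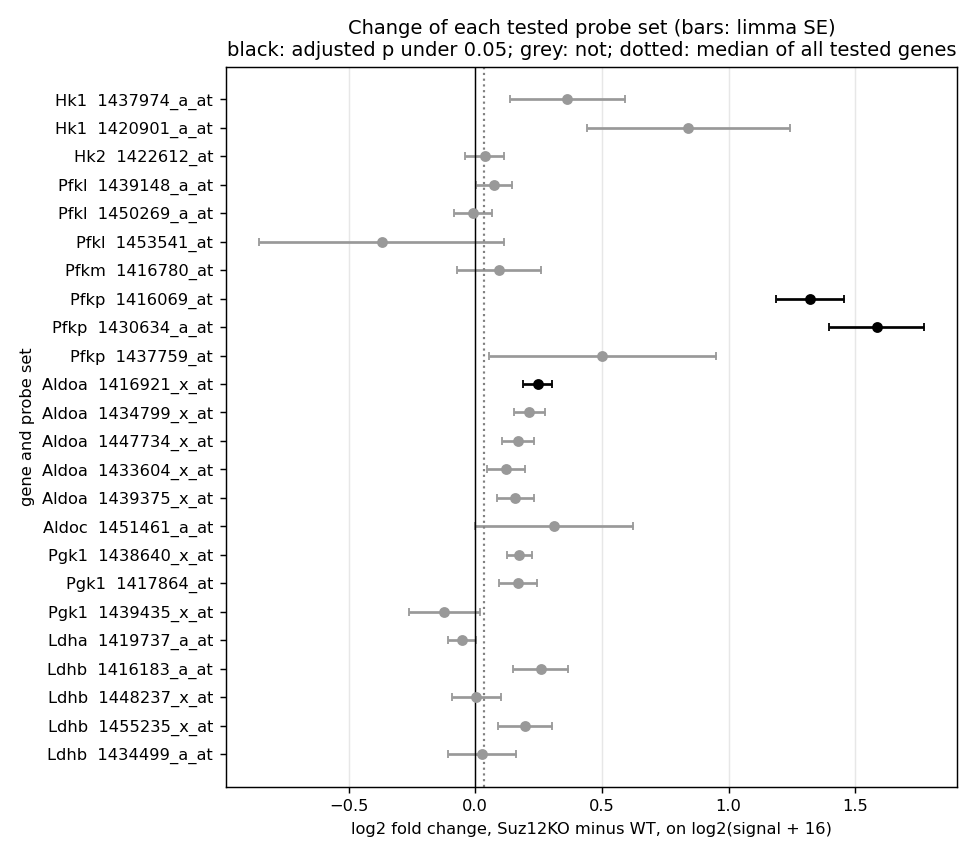
Log2 fold change of Suz12KO over WT for the 24 tested member probe sets on log2(signal + 16), with limma standard errors as bars; black points passed an adjusted p under 0.05 and grey points did not, and the dotted line is the median of all tested genes (0.04). The called Pfkp probe sets sit at 1.32 and 1.58, and the called Aldoa probe set at 0.25.

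Signals of different probe sets cannot be ranked against each other, because each set responds to its own transcript with its own strength. The ratio of 2 isoforms within an array can still be followed across genotypes, since that response cancels where signal is proportional to transcript. That proportionality was not tested. There are 6 such pairs of one step, and with 2 arrays against 2 the exact two-sided permutation test cannot go below p = 0.333. The log2 ratio of Pfkl over Pfkp was 3.50 and 3.30 in WT, against 2.09 and 2.21 in Suz12KO. It fell by 1.25 on the log2 scale (SE 0.12), a 2.37-fold shift toward Pfkp (exact p = 0.333, 0.5 adjusted over the 6 pairs). That of Pfkm over Pfkp was 0.81 and 0.32 in WT, against -0.67 and -0.65 in Suz12KO, a fall of 1.23 (SE 0.24, exact p = 0.333, adjusted 0.5).

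In both pairs the arrays of the genotypes did not overlap, as was so for 52.9% of all tested genes taken singly. Over all probe sets, each of the 9 combinations of Pfkl with Pfkp gave a negative difference, from -1.95 to -0.43, and 6 kept the genotypes apart. The 3 combinations of Pfkm with Pfkp gave -1.49 to -0.41. These combinations share probe sets and are not independent. Those apart were the ones with the brighter Pfkp probe sets, and all with the dimmest Pfkp probe set overlapped. By contrast, the ratio of Pfkl over Pfkm differed by -0.02 (SE 0.15, exact p = 1), with overlapping arrays, and turned positive (0.12 and 0.03) without WT replicate 2 or Suz12KO replicate 1.

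**Figure D3:**
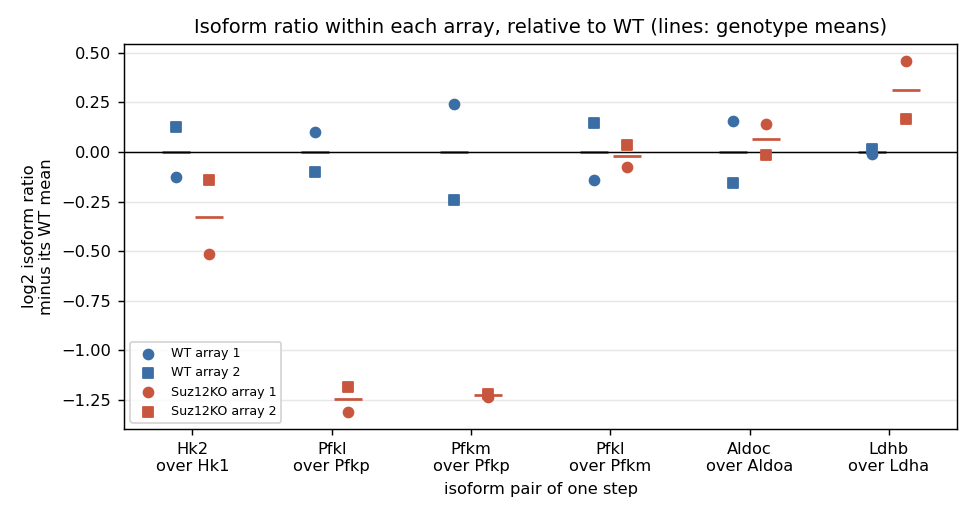
Log2 ratio of 2 isoforms of one step in each array, minus the mean of that ratio in WT, with WT in blue, Suz12KO in red and genotype means as lines. The ratios of Pfkl and Pfkm over Pfkp drop to about -1.25 and -1.23 in Suz12KO, and the other 4 pairs shift by -0.33 to 0.31.

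Hexokinase opens the pathway. Hk2, the inducible isoform known from muscle, fat and tumour cells, has 1 probe set here, which read 5888 and 5429 in WT, against 5948 and 5658 in Suz12KO. The arrays overlapped and the log2 fold change was 0.04 (SE 0.07, limma adjusted p = 0.816), with a 95% interval of -0.13 to 0.20. Hk1, the widely expressed isoform that binds the outer mitochondrial membrane, read 693 and 534 in WT, against 921 and 673 in Suz12KO on its brightest probe set. The lower Suz12KO array fell inside the WT range, and the log2 fold change of 0.36 (SE 0.23) did not pass (limma adjusted p = 0.380). The Hk1 value ranged from 0.14 without Suz12KO replicate 1 to 0.59 without Suz12KO replicate 2, came to 0.18 on dropping WT replicate 2 and 0.55 on dropping WT replicate 1, and reached 0.60 when both probe sets were averaged.

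The dimmer Hk1 probe set read 162 and 232 in WT, against 289 and 447 in Suz12KO, and its log2 fold change of 0.84 (SE 0.40, limma adjusted p = 0.290) did not pass either, although its genotypes did not overlap. The ratio of Hk2 over Hk1 was 3.06 and 3.31 in WT, against 2.67 and 3.04 in Suz12KO, a difference of -0.33 (SE 0.22, exact p = 0.333, adjusted 0.5). The genotypes were apart by a narrow margin, between 3.06 and 3.04. Leaving out 1 array gave -0.14 (without Suz12KO replicate 1) to -0.51 (without Suz12KO replicate 2), with an exact p of 0.667 in 3 of the 4 cases, and the mean of probe sets gave -0.56. The one further probe set that lists Hk1 also lists 5 other symbols and was left out.

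Aldolase A, encoded by Aldoa, is the main isoform of muscle and of most dividing cells. Its brightest probe set read 14370 and 13665 in WT, against 16606 and 16638 in Suz12KO. Both Suz12KO arrays were higher, with a mean signal of 14017 ± 498 against 16622 ± 22.6 (mean ± SD, n = 2) and a log2 fold change of 0.25 (SE 0.05, limma adjusted p = 0.0199). The other 4 Aldoa probe sets gave log2 fold changes of 0.12 to 0.21 and did not pass over all probe sets (limma adjusted p 0.0829 to 0.425), and in 1 of them the genotypes overlapped. All 5 carry the suffix x, which marks probes that can also match other transcripts, and the share of such signal was not tested. The Aldoa call was lost without WT replicate 2 (0.21, adjusted p = 0.155) or Suz12KO replicate 2 (0.24, adjusted p = 0.0569), with the mean of its probe sets (0.18) and after centring each array on its median (0.08).

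Aldoc, the isoform best known from brain, read 352 and 265 in WT, against 404 and 361 in Suz12KO. The Suz12KO arrays were higher by a margin smaller than the spread of the WT arrays, and the log2 fold change of 0.31 (SE 0.32, limma adjusted p = 0.617) did not pass. The Aldoc value was 0.12 without WT replicate 2, 0.50 without WT replicate 1 and 0.77 with the mean of both probe sets, of which one lies within the spike range. Its other probe set read 15.3 and 8.62 in WT, against 43.5 and 54.8 in Suz12KO, all within the spike range, so it gives no fold change and was below the filter. The ratio of Aldoc over Aldoa was -5.29 and -5.61 in WT, against -5.31 and -5.46 in Suz12KO, a difference of 0.06 (SE 0.18, exact p = 1). Its sign turned under quantile normalization (-0.04) and without WT replicate 2 (-0.09) or Suz12KO replicate 1 (-0.02).

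Pgk1 lies on the X chromosome and is the form of phosphoglycerate kinase found in somatic cells. Its brightest probe set read 36919 and 37025 in WT, against 42645 and 40827 in Suz12KO. The Suz12KO arrays were higher by a small step, from 36972 ± 74.8 to 41736 ± 1285 (SD, n = 2), or 0.17 as a log2 fold change (SE 0.05, limma adjusted p = 0.0414 over genes). This probe set also carries the suffix x, and over all probe sets it was not called (limma adjusted p = 0.0723). The next probe set, which has no suffix, read 26952 and 23057 in WT, against 28810 and 27277 in Suz12KO (0.17, SE 0.07, limma adjusted p = 0.252 over all probe sets). The dimmest pointed the other way without passing, at 2309 and 2860 in WT, against 2115 and 2634 in Suz12KO (-0.12, SE 0.14). The Pgk1 call was lost when either WT array or Suz12KO replicate 1 was dropped (adjusted p from 0.142 to 0.191), and its log2 fold change was -0.01 under quantile normalization and 0.01 after centring. It was also lost with no filter on dim genes (adjusted p = 0.105), without suffixed probe sets (adjusted p = 0.222) and with the mean of its probe sets (0.07). Of 416 tested X-linked genes, 10.8% were called higher against 4.48% of all tested genes, with a median log2 fold change of 0.13 beside 0.04. Calls went both ways: 45 of the 416 were higher and 30 lower, where 5.50% of all tested genes were lower. The part of this X-linked shift in the value of Pgk1 was not tested.

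Lactate dehydrogenase closes the pathway when pyruvate is not sent to mitochondria. Ldha, whose subunit favours the making of lactate, read 29722 and 27566 in WT, against 27652 and 27591 in Suz12KO. Both Suz12KO arrays lay between the WT arrays. The log2 fold change was -0.05 (SE 0.05, limma adjusted p = 0.614) with a 95% interval of -0.17 to 0.07, and 0.0029 without WT replicate 1.

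Ldhb, the subunit typical of heart, read 3285 and 3097 in WT, against 4230 and 3449 in Suz12KO on its brightest probe set. Both Suz12KO arrays were higher, though they differed from each other by more than the WT arrays did, and the log2 fold change of 0.26 (SE 0.11) did not pass (limma adjusted p = 0.181). It passed without Suz12KO replicate 2 (0.41, adjusted p = 0.0390), and was 0.11 without Suz12KO replicate 1. The other 3 Ldhb probe sets gave log2 fold changes of 0.0047, 0.20 and 0.03, and none passed limma (0 at an unadjusted p under 0.05). The ratio of Ldhb over Ldha was -3.17 and -3.15 in WT, against -2.70 and -2.99 in Suz12KO, a difference of 0.31 (SE 0.15, exact p = 0.333, adjusted 0.5). The arrays did not overlap, and the difference was 0.17 on dropping Suz12KO replicate 1 and 0.46 on dropping Suz12KO replicate 2. Across all probe sets, the 4 combinations gave 0.06 to 0.31, and 3 kept the genotypes apart. With the mean of probe sets the difference was 0.17.

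**Figure D4:**
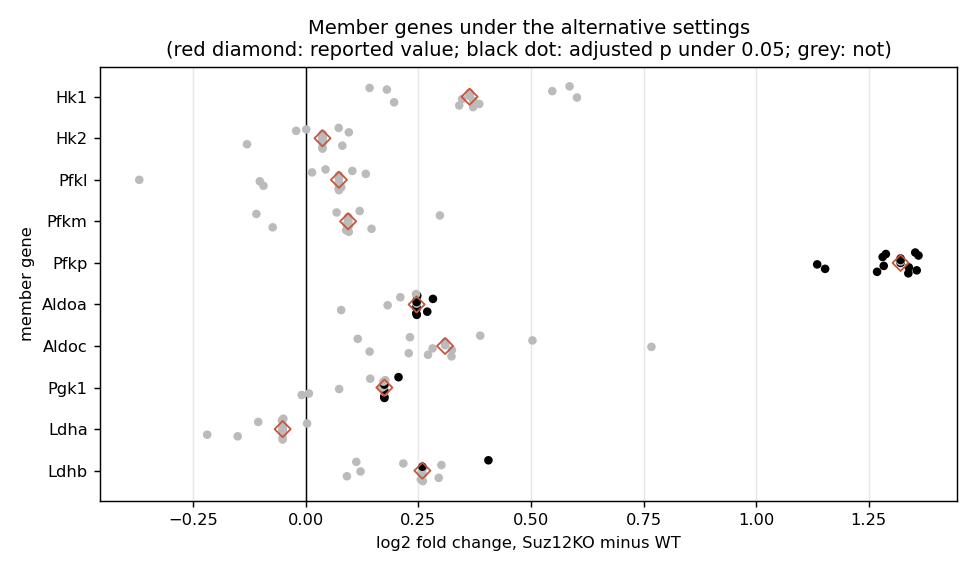
Log2 fold change of the 10 member genes as reported (red diamonds) and under each alternative setting (dots, black where the adjusted p was under 0.05). Pfkp stays between 1.14 and 1.36 under all 15 alternatives, while Hk2, Pfkl, Pfkm, Pgk1 and Ldha have dots on both sides of 0.

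The other genes of the pathway were read from lists drawn up by name, with earlier results of these data known. Among the other glycolytic enzymes, 11 passed the filter on dim signal and were tested. Eno3, the muscle form of enolase, read 1201 and 984 in WT, against 689 and 699 in Suz12KO and fell by 0.64 on the log2 scale (SE 0.17, limma adjusted p = 0.0478), while the other 10 did not pass. A count of 1 in 11 is near the 9.97% of all tested genes called, so it says nothing particular about this list. The Eno3 call was lost on leaving out each of the 4 arrays in turn (adjusted p from 0.0803 to 0.297). The list median was 0.14, beside 0.04 over all tested genes, but 0.045 without Suz12KO replicate 2, -0.025 after centring and -0.039 with the mean of probe sets.

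Among 12 tested glucose and lactate transport genes, Slc2a1, which encodes the basal glucose transporter GLUT1, was the one called. It read 14427 and 14307 in WT, against 11656 and 11891 in Suz12KO, a fall of 0.29 on the log2 scale (SE 0.05, limma adjusted p = 0.00928). Both Suz12KO arrays were lower, but the call was lost when either WT array was dropped (adjusted p 0.0588 without replicate 1 and 0.0557 without replicate 2). The other 11 did not pass, and 1 call in 12 is near the 9.97% of all tested genes called. The list median of 0.09 was 0.22 without WT replicate 1, 0.27 without Suz12KO replicate 1 and 0.014 without Suz12KO replicate 2, and it was negative after centring (-0.082) and with the mean of probe sets (-0.027).

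Of 16 tested regulators of flux and of pyruvate entry into mitochondria, Pdha1, a subunit of pyruvate dehydrogenase and like Pgk1 X-linked, was called. It read 7065 and 7067 in WT, against 8315 and 8363 in Suz12KO, a log2 fold change of 0.24 (SE 0.06, limma adjusted p = 0.0391). This call was lost on leaving out each of the 4 arrays in turn (adjusted p from 0.0905 to 0.163) and after centring (0.07). The other 15 did not pass, and 1 call in 16 is below the 9.97% of all tested genes called. The list median of 0.09 moved with each array left out, to 0.016 without WT replicate 1, 0.21 without WT replicate 2, 0.16 without Suz12KO replicate 1 and 0.017 without Suz12KO replicate 2, and was -0.082 after centring.

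The pentose phosphate branch, which leaves glycolysis at its first intermediate, had 2 of 8 tested genes called higher and a median of 0.33. Of all tested genes, 4.48% were called higher. The list median was 0.050 without WT replicate 2 and 0.080 without Suz12KO replicate 2, near that of all tested genes, and 0.44 and 0.36 without the other arrays. Taldo1, transaldolase, read 1549 and 1445 in WT, against 2101 and 2149 in Suz12KO (0.50, SE 0.11, limma adjusted p = 0.0186). Rpe, the epimerase of the same branch, read 1391 and 1420 in WT, against 1801 and 2074 in Suz12KO (0.45, SE 0.12, limma adjusted p = 0.0441). The genotypes did not overlap for either gene. Without WT replicate 2 or Suz12KO replicate 2 neither passed (Taldo1 adjusted p 0.106 and 0.0629, Rpe 0.132 and 0.172), Rpe was also lost without WT replicate 1 (0.144), and both were lost after centring (0.33 and 0.29).

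Of 7 tested gluconeogenesis genes, Pck2 and Got1 were called higher, where 4.48% of all tested genes were. The list median was 0.34 (0.26 to 0.50 when leaving out 1 array). Pck2, the mitochondrial form of the enzyme that makes phosphoenolpyruvate, read 154 and 276 in WT, against 725 and 619 in Suz12KO. Its log2 fold change was 1.62 (SE 0.34, limma adjusted p = 0.0156), and Pck2 was 1.23 without WT replicate 1, 2.01 without WT replicate 2, and no longer passed once Suz12KO replicate 1 was dropped (adjusted p = 0.0548) and with the mean of its probe sets (0.74). Got1, the cytosolic aspartate aminotransferase, read 3847 and 3642 in WT, against 4937 and 4566 in Suz12KO (0.34, SE 0.08, limma adjusted p = 0.0271). Its call was lost when either WT array or Suz12KO replicate 1 was dropped (adjusted p from 0.0595 to 0.147) and after centring (0.17).

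**Figure D5:**
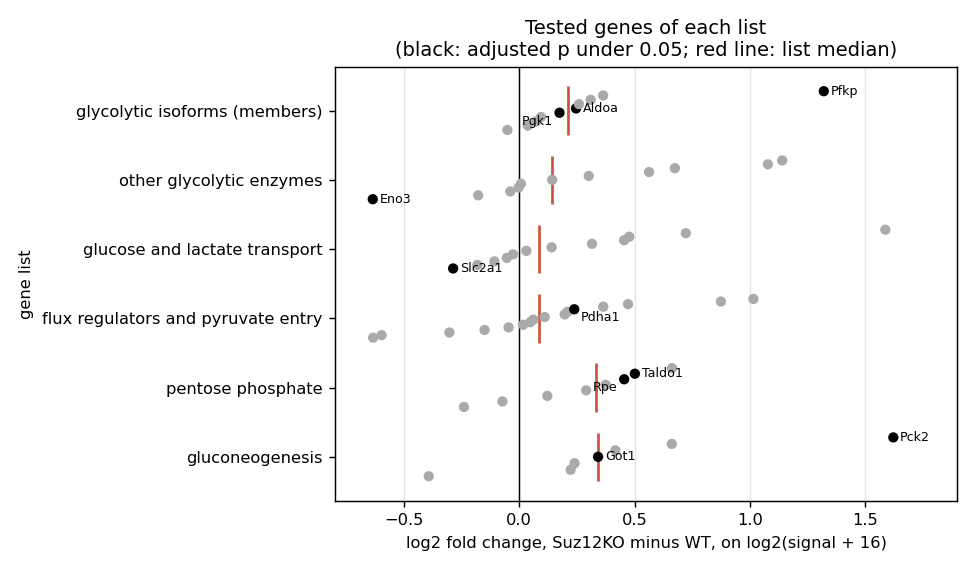
Log2 fold change of Suz12KO over WT for the tested genes of each list, with genes past an adjusted p under 0.05 in black and named, the others in grey, and list medians as red lines. Among the called genes Pfkp (1.32) and Pck2 (1.62) stand more than 2-fold above WT, and the other called genes lie between -0.64 and 0.50.

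In the limma fit the expected spread varies with brightness. With 1 expected spread for all genes, limma called 0 of the 10 members and 0 of all genes, with 1 member and 2332 genes at an unadjusted p under 0.05, and the adjusted p of Pfkp was 0.104. When arrays were centred on their medians instead, the middle log2 fold change of the tested genes went from 0.04 to -0.13 and the calls from 570 higher and 700 lower to 294 and 1243. After that shift Pfkp was the member still called (1.15), and the members' median was 0.04. Aldoa (0.08) and Pgk1 (0.01) no longer passed.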

How the data were processed

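Expression was measured on 4 Affymetrix arrays, 2 WT and 2 Suz12KO, grouped by the sample titles. The authors deposited 1 linear intensity per probe set and array. The sources used here do not name the software that made it. After trimming 2% at each end, every array averaged 500.003, so the deposited intensity had been scaled by the authors to 1 trimmed mean, which hides a change shared by most genes. No further normalization was applied. The platform annotation gave 1 symbol for 34945 probe sets, several for 932 and none for 9160, and 64 controls were left out. Values were taken as log2(signal + 16), so changes of dim genes are understated. The brightest probe set represented each of 18193 genes, and genes with a mean below the 30th percentile were dropped. The genotypes were compared with limma 3.58.1 under R 4.3.3 (two-sided, eBayes with trend, prior degrees of freedom 7.16), and all probe sets were fitted in the same way. Isoform ratios were compared by exact permutation. Named genes were all members, Suz12 and, per list, up to 3 rises and 3 falls past the test. Alternatives were pseudocounts of 1 and 64, other scalings, filters, probe set choices and variance models, the replicate block and leaving out each array. The members and lists were chosen with earlier results of these data known. The procedure was tested on simulated data. Figures used matplotlib 3.10.9.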

Additional observations from a re-analysis of the deposited data

How the results depend on the processing

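Pfkp kept its call under 14 of 15 alternatives (log2 fold change 1.14 to 1.36) and the fall of the Pfkl and Pfkm ratios over Pfkp held under all 10 run for each (-1.69 to -1.15 and -1.47 to -0.98). Centring is among these 10 and cannot change a ratio within an array. As Pfkl and Pfkm changed little, both ratios mostly restate the rise of Pfkp. The number of members called, 3 as reported, was 1 after centring, with the mean of probe sets and among probe sets without a suffix (5 members tested), 0 without the trend, and 1 to 3 when leaving out 1 array. The 3 called member probe sets became 0 without the trend, 2 to 3 when leaving out 1 array and 6 with the replicate block. The replicate number is shared, and deviations of the same-numbered arrays correlated at 0.02 over genes (2 pairs). This single value cannot decide whether the arrays are paired. The block gave 4 called members (adding Ldhb, adjusted p = 0.0351) and 2098 called genes in place of 1270. It leaves fewer residual degrees of freedom than the main fit, and its smallest limma adjusted p was 6.7e-77. Directions turned for members that had not passed or changed little: Hk2 (-0.13 after centring, -0.021 to 0.096 when leaving out 1 array), Pfkl (-0.094 after centring, -0.10 with the mean of probe sets, -0.37 without suffixed ones), Pfkm (-0.074 after centring, -0.11 to 0.30 when leaving out 1 array), Pgk1 (-0.0092 under quantile normalization), Ldha (0.0029 without WT replicate 1), and the ratios of Aldoc over Aldoa (-0.041 under quantile normalization, -0.094 to 0.22 when leaving out 1 array) and Pfkl over Pfkm (-0.16 to 0.12 when leaving out 1 array). The number of called genes, 1 as reported, in other glycolytic enzymes was 0 with quantile normalization, no filter, the mean of probe sets, no suffixed probe sets, no trend or robust estimation, and 2 after centring or with the block. That of transport genes, 1, was 2 with quantile normalization, centring, the mean or no suffixed probe sets, and 0 without the trend. That of flux regulators, 1, was 2 with a pseudocount of 64 or a filter at the 50th percentile, 3 with the block, and 0 without a filter, with the mean or without the trend. After centring and without Suz12KO replicate 1 it stayed at 1 by number but was a call lower in place of Pdha1, which was called higher as reported. That of pentose phosphate genes, 2, was 0 after centring or without the trend and 1 with no filter, the mean or no suffixed probe sets. That of gluconeogenesis genes, 2, was 1 after centring or without suffixed probe sets and 0 with the mean or without the trend. Leaving out 1 array gave 0 for other glycolytic enzymes, 0 to 1 for transport, and 0 to 2 for flux regulators, pentose phosphate and gluconeogenesis genes. Without suffixed probe sets Hk1, Ldha, Ldhb and Aldoa have no probe set and Aldoc lies under the filter. The value of Pfkl in that setting is the one of its dimmest probe set. Centring moves the log2 fold change of every gene by the same amount. Apart from this and from smaller sets of genes or arrays, the cause of these shifts was not tested. Probe sets within the spike range and 2 arrays per genotype limit what can be measured.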
